A study of Mus musculus with 23 samples.

Results

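Livers of control male mice were compared with livers of control female mice, all fed WD for 16 weeks and taken in the fed state. The 11 control livers, 5 male and 6 female, were chosen by their labels from a series of 23, and the genes described are the 15267 autosomal protein-coding genes listed for both sexes, of 22852 genes of any kind. The series was set up around loss of Cpt1a in the liver. It holds 4 groups: B100-Control males, B100-Control females, and males and females of the B100 LKO genotype, 6 of each sex. All 4 groups share the B100 background and the diet, so no liver of a chow-fed or non-B100 mouse enters any comparison. The labels name neither the Cre driver of the LKO genotype, nor the age, litter or housing of any mouse. The question here is how far lipid, inflammatory and drug-metabolism genes differed between the sexes in livers that carry no LKO genotype. The LKO livers serve as a second set of animals in which the same contrast was measured.

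Mouse liver is among the most sexually dimorphic organs in gene expression. In males the pituitary releases growth hormone in separated pulses, and in females more continuously. The liver's growth hormone receptor passes this on through the kinase JAK2 to the transcription factor STAT5B, and the repressors BCL6 and CUX2 act on many of the same genes, BCL6 mainly in males and CUX2 mainly in females. Genes known for this control include major urinary proteins, steroid-metabolizing cytochromes P450 and sulfotransferases. A Western-type diet loads the liver with lipid, which is stored in droplets coated with perilipins and CIDE proteins, exported in lipoproteins, burned in mitochondria and peroxisomes, or turned into bile acids in the case of cholesterol.

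Levels are given as CPM, counts scaled to the size of each library, with library sizes adjusted by TMM, a method that centres most genes. Values of the 5 control males are always given in the order male 1, 2, 3, 4 and 6. Values of the 6 control females are given as the lowest, the median and the highest. Differences are log2 fold changes, male over female, with a standard error (SE) and an adjusted p from edgeR's quasi-likelihood test. The SE was derived as the absolute log2 fold change divided by the square root of that test's F statistic. It is therefore approximate, above all where a sex had almost no counts. A gene is called where that p is under 0.05. CPM do not account for gene length, so levels of different genes are not ranked against each other.

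Libraries held 14224665 to 18361717 counts in control males and 15174756 to 17129450 in control females. Xist had 0 counts in every male and at least 2329 in every female, and Ddx3y had at least 329 counts in every male and at most 4 in any female, so each library matched its labelled sex. The labelled tissue was borne out by the level of Alb, a hepatocyte marker, at 36000 to 50090 CPM in males and 58380 to 67700 CPM in females. Male livers are all in one deposited table and female livers in the other, so sex and table cannot be told apart. Control male 4 stood apart from the other males. It had the fewest counts and the fewest detected genes (18232), and its value on the second principal component was -50.52, an axis that carried 16.3% of the variance. The first component carried 44.8% and separated the sexes. Control male 4 was the lowest male for 3245 and the highest for 3115 of the 11904 genes tested. Where leaving out a single liver, male 4 or another, moved a list's count of calls by more than 1.5 times, that change is given with the list.

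Of 11904 autosomal protein-coding genes with enough counts to test, 2249 (18.9%) were called. Higher expression in males was called for 1145 genes (9.62%) and in females for 1104 (9.27%). The median log2 fold change over all tested genes was -0.0045. Among the called genes, 223 (1.87%) were higher in males and 239 (2.01%) higher in females by at least 1 on the log2 scale. The groups did not overlap for 650 genes higher in all males (5.46%) and 650 higher in all females (5.46%). At 4 or more on the log2 scale, 31 were higher in males and 15 in females. Each list of genes below is read against the shares of 9.62% and 9.27%. The lists and their members were chosen with earlier results of these data known, so these readings are descriptions and not tests. Without control male 4 the shares rose to 11.1% and 11%.

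**Figure D1:**
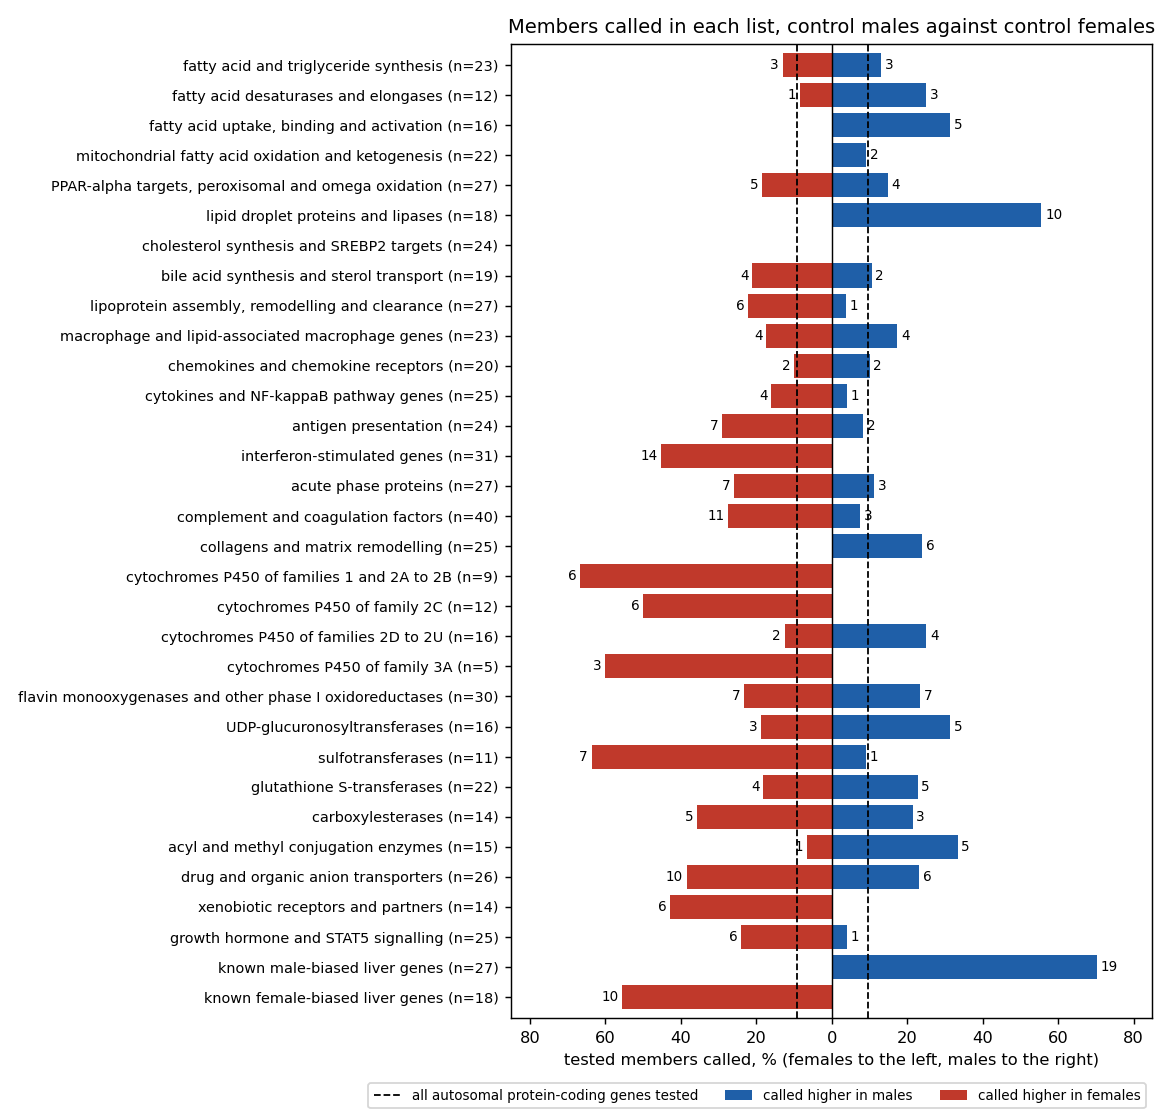
Share of tested members of each gene list called higher in control males (blue, right) or higher in control females (red, left), in %, with the number of called members beside each bar and the number tested in brackets. Dashed lines mark the shares over all autosomal protein-coding genes tested, 9.62% for males and 9.27% for females, and lipid droplet proteins lie to the right while cytochromes P450 of families 2B, 2C and 3A, sulfotransferases and interferon-stimulated genes lie to the left.

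The 8 genes with the largest differences in each direction were taken among called genes with no overlap between the sexes. On the female side they included Cyp2c69, Sult3a1, A1bg, Cyp3a44, Cyp2b13, Cyp2c40 and Cux2. On the male side they were Mup7, Mup14, Mup12, Cyp4a12b, Cyp4a12a, Mup13, Scara5 and Mup11. Members of the Mup, Cyp and Sult families share long stretches of sequence, and how reads that match several members were counted is not given in the sources used here, so counts of single members are uncertain.

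Genes listed for growth hormone signalling were called mostly on the female side, and the signalling itself was not measured. Of 25 tested genes of growth hormone and STAT5 signalling, 6 were higher in females, 1 in males and 18 were not called. Cux2, which encodes a repressor of male-biased liver genes, lies at chr5:121994429-122188165 (mm39, minus strand). It measured 0.491, 0.0588, 0.472, 0.161 and 0.462 CPM in the males and 23.9, 58.3 and 109 CPM in the females (log2 fold change -7.47 ± 0.54 SE, adjusted p = 2.2e-06). Every female exceeded every male by a wide margin. Prlr, the prolactin receptor, measured 17.7, 26.7, 13.8, 28.7 and 31.8 CPM in the males and 169.8, 192 and 215 CPM in the females (log2 fold change -3.01 ± 0.20 SE, adjusted p = 9.42e-07). Esr1, the estrogen receptor alpha, and Trim24, a nuclear receptor coregulator, were higher in females by 3.54-fold and 3.39-fold (adjusted p = 0.000267 and 3.78e-05). Insr, the insulin receptor, was 1.41-fold higher in females (adjusted p = 0.00453). For these 5 genes no female overlapped a male. Igfbp1, a secreted binding protein of insulin-like growth factors, was higher in females (log2 fold change -1.24 ± 0.35 SE, adjusted p = 0.0268), but male 4 at 1317 CPM lay inside the female range of 849.9 to 2059.6 CPM. The Igfbp1 call was lost in 7 of 11 fits that left out 1 sample, with an adjusted p of up to 0.0681. Zfp809, a zinc finger repressor and the only member called higher in males (log2 fold change 0.61 ± 0.18 SE, adjusted p = 0.0361), lost its call in 7 of those fits, the one without male 4 among them, with an adjusted p of up to 0.0942. Without control male 4 the list held 10 members higher in females and 0 in males.

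A list of liver genes known from general knowledge to be male-biased behaved as named for 19 of 27 tested members, and none was called higher in females. The direction is what the list was made for and is no independent finding; the sizes and the spread between animals are what these livers add. Mup20, the major urinary protein known as darcin, measured 3199, 1766, 3268, 3158 and 1752 CPM in the males and 29.9, 72.3 and 94.3 CPM in the females (log2 fold change 5.31 ± 0.32 SE, adjusted p = 4.43e-07). Mup7 measured 797, 830.2, 742, 11436 and 1738 CPM against 0.411, 3.08 and 7.26 CPM (log2 fold change 9.83 ± 1.12 SE, adjusted p = 0.000113). The Mup7 level in male 4 far exceeded that of any other male. Mup12 showed the same layout, at 327, 843, 411, 9724 and 1436 CPM in the males and 2.41, 11.8 and 18.6 CPM in the females. Mup13 was at 11.3, 5.41, 3.6, 989 and 40.4 CPM in the males and 0.958, 1.17 and 2.29 CPM in the females. Leaving out male 4 changed the log2 fold change from 9.83 to 8.23 for Mup7, from 7.83 to 6.07 for Mup12, from 7.91 to 6.24 for Mup14, from 6.42 to 4.82 for Mup11 and from 7.20 to 3.42 for Mup13, and all 5 stayed called. By limma-voom with sample quality weights Mup13 was not called (adjusted p = 0.114). For 22 of the 27 genes the highest male was male 4. Hsd3b5, a steroid dehydrogenase chosen here after its values were seen, was at 30.0, 29.1, 15.2, 353 and 95.1 CPM in the males and 0.81, 1.87 and 7.89 CPM in the females, with a log2 fold change of 4.99, or 3.70 without male 4. Serpina12, the hepatokine vaspin, was more even at 191, 208, 199, 282 and 257 CPM in the males and 25.4, 34.4 and 63.7 CPM in the females (log2 fold change 2.55 ± 0.21 SE, adjusted p = 6.72e-06). Scara5, a ferritin receptor, was at 4.29, 3.76, 3.48, 16.5 and 11.7 CPM in the males and at most 0.244 CPM in the females (log2 fold change 6.59 ± 0.69 SE, adjusted p = 5.79e-05); without female 1 its log2 fold change was 7.41.

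Of 18 tested genes known to be female-biased, 10 were called higher in females and 0 in males. A1bg, which encodes a plasma glycoprotein, had 0 to 2 counts in each male library and 60 to 518 in each female library. Its ratio of pooled female to pooled male counts, scaled to library size, was 418, with an exact binomial 95% interval of 143 to 2030 that covers counting error only. Cyp39a1, an oxysterol hydroxylase, measured 9.75, 7.58, 9.37, 8.59 and 10.4 CPM in the males and 16.8, 28.2 and 31.2 CPM in the females (log2 fold change -1.50 ± 0.16 SE, adjusted p = 5.71e-05). Sall1, a transcription factor, was 3.24-fold higher in females (adjusted p = 0.000595), and the highest male at 17.6 CPM stayed under the lowest female at 23.7 CPM.

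The promoters of these genes were searched for TTCNNNGAA, the palindromic motif that STAT proteins are known to bind, which reads the same on both strands. Windows of 250 bases before to 50 after each gene start were taken from RefSeq on build GRCm38.p6, and one window per gene was used. The motif was in 7.09% of the windows of 9476 tested genes, in 7% of those of genes higher in males and in 6.19% of those of genes higher in females. Among called genes that differed by 1 or more on the log2 scale, the shares were 6.67% on the male side and 5.52% on the female side. Among the gene lists the share was highest in acute phase proteins, at 31.8%. Hamp, a hepcidin gene that was not called, also held the motif. Of the 14 genes with a window that were higher in females by 4 or more on the log2 scale, 4 held the motif. Of 21 such genes higher in males 0 did. A match describes the letters only. The stretches around the motif in these 4 genes are printed 5′ to 3′ on the strand of the gene, with the motif in capitals, because they belong to the genes with the largest female excess.
A1bg: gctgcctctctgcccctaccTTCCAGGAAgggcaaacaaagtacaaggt
Sult3a1: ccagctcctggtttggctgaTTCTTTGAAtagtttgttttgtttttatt
Slc22a26: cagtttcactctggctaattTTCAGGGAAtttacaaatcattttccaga
Hamp2: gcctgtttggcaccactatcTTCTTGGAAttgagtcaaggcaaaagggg
The A1bg stretch is chr15:60921326-60921374 (minus strand), the Sult3a1 stretch chr10:33857593-33857641 (plus strand), the Slc22a26 stretch chr19:7802780-7802828 (minus strand) and the Hamp2 stretch chr7:30924247-30924295 (minus strand). The motif starts between 84 and 141 bases before the gene start in all 4.

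Drug-metabolism genes were called in both directions, beside the 9.62% and 9.27% of all genes. Of 190 tested members of the drug lists, 36 (18.9%) were called higher in males and 60 (31.6%) higher in females. The lists run from phase I oxidation by cytochromes P450 and flavin monooxygenases, through phase II conjugation, to transporters and the receptors that sense xenobiotics. Hepatocyte markers moved with them in the same direction: 4 of 10 were called higher in females and none in males, with a median log2 fold change of -0.35, and the summed marker level was 75100 to 103000 CPM in males and 107400 to 124600 CPM in females. Alb, the albumin gene, made up much of that sum at 36000 to 50090 CPM in males and 58380 to 67700 CPM in females, and the other 9 markers together, 39100 to 53780 CPM in males and 46670 to 56910 CPM in females, overlapped. What part this had in the results was not tested. In bulk liver RNA, fewer cells of a type and less RNA per cell cannot be told apart.

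Cytochromes P450 of families 1, 2A and 2B are steroid and xenobiotic hydroxylases, several of them inducible through the receptor CAR. Of 9 tested, 6 were higher in females and 0 in males, with a median log2 fold change of -3.68. Cyp2b13, at chr7:25760922-25795622 (mm39, plus strand), measured 1.04, 3.06, 0.413, 0 and 0.116 CPM in the males and 186, 299 and 383 CPM in the females (log2 fold change -8.21 ± 0.63 SE, adjusted p = 3.84e-06). Without male 2 its log2 fold change was -9.41. Cyp2a5, the coumarin hydroxylase, measured 551, 497, 335, 284 and 379.8 CPM in the males and 861, 1306 and 1575 CPM in the females (log2 fold change -1.66 ± 0.20 SE, adjusted p = 0.000149). Its near-identical neighbour Cyp2a4, named here after its values were seen, ranged from 0.161 to 30.5 CPM in the males and from 257 to 2178 CPM in the females (log2 fold change -6.13 ± 0.85 SE, adjusted p = 0.000532). Every female lay well above every male. Cyp2a22 measured 8.4, 7.11, 10.9, 2.17 and 5.03 CPM in the males and 45.6, 77.5 and 175 CPM in the females (log2 fold change -3.86 ± 0.45 SE, adjusted p = 0.000124).

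In family 2C, which oxidizes arachidonic acid and many drugs, 6 of 12 tested genes were higher in females and none in males. Cyp2c69, at chr19:39831258-39875243 (mm39, minus strand), measured 0.368, 0.411, 0.118, 0.803 and 0.52 CPM in the males and 172, 303 and 475 CPM in the females (log2 fold change -9.45 ± 0.42 SE, adjusted p = 1.44e-08). Cyp2c40 measured 1.29, 0.881, 0.707, 1.53 and 1.56 CPM in the males and 167, 229.8 and 259.5 CPM in the females (log2 fold change -7.53 ± 0.23 SE, adjusted p = 3.11e-10). Both were thus close to undetected in every male and present in every female. Cyp2c68 was partly shared, at 60.2, 70.1, 47.7, 94.1 and 81.4 CPM in the males and 278, 327 and 401 CPM in the females (log2 fold change -2.24 ± 0.16 SE, adjusted p = 2.2e-06). The other 3 called members, Cyp2c37, Cyp2c38 and Cyp2c39, had log2 fold changes of -1.95, -1.74 and -2.61.

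Family 3A, the major testosterone 6-beta hydroxylases, had 5 tested members, of which 3 were higher in females and 0 in males. The filter on low counts was rerun in each fit. Without male 1, 3 or 4 it admitted 7 members, 5 of them called higher in females. Leaving out any single female left 5 tested members. These counts do not cover the same members, so the larger one is no stronger result. Cyp3a44 had 0 to 2 counts in each male library and 40 to 515 in each female library. Its ratio by the same measure was 398 (exact binomial 95% interval 109.9 to 3293). Cyp3a11, the member with the highest mean level per gene length, was not called: it measured 1489, 1336, 1173, 659 and 430.4 CPM in the males and 1081, 1246 and 1559 CPM in the females (log2 fold change -0.33 ± 0.26 SE, adjusted p = 0.415). Cyp3a13 and Cyp3a59 were 1.43-fold and 2.13-fold higher in females (adjusted p = 0.0164 and 0.00794). Cyp3a41b was listed in the female table only: its female counts ran from 0 to 906. Against a floor of 3 counts per male library its mean female level was at least 118-fold higher. That mean came mostly from females 2, 3 and 6, and the ratio does not hold for each female.

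Families 2D to 2U were split, with 4 of 16 tested genes higher in males and 2 higher in females. Cyp2d9, a testosterone 16-alpha hydroxylase, measured 1287, 1239, 1226, 2408 and 1517 CPM in the males and 51.1, 77.7 and 169 CPM in the females (log2 fold change 4.04 ± 0.32 SE, adjusted p = 5.83e-06). Cyp2u1, which hydroxylates long-chain fatty acids, measured 26.2, 27, 23.1, 40.2 and 24.4 CPM in the males and 2.67, 3.42 and 7.09 CPM in the females (log2 fold change 2.69 ± 0.24 SE, adjusted p = 1.29e-05). In both genes male 4 was the highest liver of all and no female reached any male. Cyp2f2, a periportal naphthalene hydroxylase, was 1.79-fold higher in males (adjusted p = 0.00447). Cyp2g1 and Cyp2d13 went the other way, 12.3-fold and 1.83-fold higher in females (adjusted p = 0.00039 and 0.0063). Cyp2e1, the ethanol-oxidizing enzyme and the list's highest member per gene length, measured 5636, 7155, 5178, 8448 and 9519 CPM in the males and 5985, 9020.0 and 10276 CPM in the females, and was not called (log2 fold change -0.26 ± 0.19 SE, adjusted p = 0.352).

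**Figure D2:**
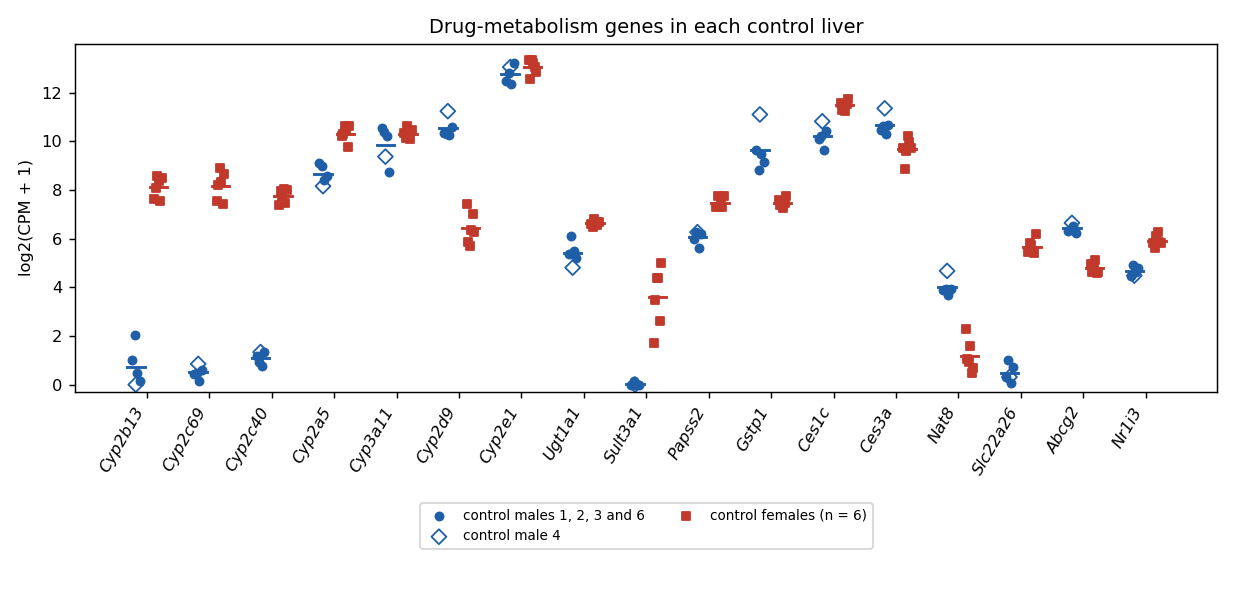
Expression of 17 drug-metabolism genes in each control liver as log2(CPM + 1), with males in blue (male 4 as an open diamond), females in red squares and the mean of each sex as a bar. Sult3a1 and Cyp2c69 lie near 0 in all 5 males, Cyp2d9 and Abcg2 are higher in all 5 males, and Cyp2e1 and Cyp3a11 overlap.

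Among 30 flavin monooxygenases and other phase I enzymes, 7 were higher in males and 7 in females. Fmo2 measured 7.17, 7.7, 6.01, 4.18 and 10.2 CPM in the males and 38.1, 52.6 and 89.6 CPM in the females (log2 fold change -3.07 ± 0.29 SE, adjusted p = 1.96e-05). Fmo1 was 1.87-fold higher in females (adjusted p = 0.000595). On the male side, the aldehyde reductase Akr7a5 was 1.42-fold higher (adjusted p = 0.00516) and the aldehyde oxidase Aox1 1.48-fold higher (adjusted p = 0.014). Ephx1, the microsomal epoxide hydrolase, was 1.54-fold higher in males (adjusted p = 0.018), a call lost without male 1 (adjusted p = 0.0521). Without female 6 the list held 4 members higher in males.

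UDP-glucuronosyltransferases attach glucuronic acid to bilirubin, steroids and drugs. Of 16 tested, 5 were higher in males and 3 in females, and 2 to 4 were higher in males in the fits that left out 1 liver, the fewest without female 1 or 5 and 3 without male 1 or female 3. The 3 called Ugt1a genes (Ugt1a1, Ugt1a5 and Ugt1a6a) were higher in females and the 4 called Ugt2b genes (Ugt2b1, Ugt2b5, Ugt2b35 and Ugt2b38) higher in males. No difference between the subfamilies was tested. The Ugt1a5 call was lost without male 1, male 6 or female 2 (adjusted p = 0.055, 0.0677 and 0.0545). The fifth member higher in males was Ugdh, which makes the glucuronic acid donor. Ugt1a1, the bilirubin transferase, measured 40.6, 67.8, 43.7, 27 and 35.3 CPM in the males and 89.2, 98.8 and 110.3 CPM in the females (log2 fold change -1.20 ± 0.18 SE, adjusted p = 0.000949). Ugt1a6a measured 2.15, 2.7, 2.71, 1.93 and 2.14 CPM in the males and 5.55, 9.6 and 11.9 CPM in the females (log2 fold change -1.99 ± 0.19 SE, adjusted p = 3.14e-05). Ugt1a genes share their last exons, so their counts cannot be fully separated. Ugt2b1 measured 256, 304, 191, 495 and 254 CPM in the males and 124, 160.2 and 212 CPM in the females (log2 fold change 0.89 ± 0.21 SE, adjusted p = 0.0107). Ugt2b35 was 1.36-fold higher in males (adjusted p = 0.0219).

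Sulfotransferases add sulfate to hormones, bile acids and phenols. Of 11 tested genes of sulfation, 7 were higher in females and 1 in males. Sult3a1, an amine sulfotransferase, had 0 to 2 counts in each male library and 38 to 480 in each female library, a ratio of pooled counts of 583 (exact binomial 95% interval 161 to 4819). Sult2a7 measured 1.53, 0.999, 1.3, 2.57 and 2.19 CPM in the males and 6.65, 15.6 and 18.4 CPM in the females (log2 fold change -3.07 ± 0.29 SE, adjusted p = 2.24e-05). Papss2, which makes the sulfate donor, measured 62.1, 77.3, 48.4, 75.8 and 72.8 CPM in the males and 156, 167 and 212 CPM in the females (log2 fold change -1.41 ± 0.14 SE, adjusted p = 3.18e-05). Sult1a1, the phenol sulfotransferase, was 1.65-fold higher in females (adjusted p = 0.00312). Papss1, the other donor synthase, was the member higher in males (log2 fold change 0.77 ± 0.23 SE, adjusted p = 0.0374), and that call was lost in 7 of the 11 fits that left out 1 sample, with an adjusted p of up to 0.0956. Another 5 sulfotransferases were listed in the female table only. Sult2a2 had 5, 730, 1178, 15, 4 and 360 counts in females 1 to 6, and Sult2a5 had 5, 160, 428, 2, 0 and 124, so females 2, 3 and 6 were high and females 1, 4 and 5 low for both. Sult2a6 reached 68 and Sult3a2 28 counts in a female library, and Sult2a4 averaged 0.833 counts.

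Glutathione S-transferases conjugate electrophiles, and 5 of 22 tested were higher in males and 4 in females, or 2 in females without male 2, male 3 or female 6. Gstp1 measured 786, 451, 701, 2191 and 566 CPM in the males and 150.4, 171 and 217 CPM in the females (log2 fold change 2.40 ± 0.34 SE, adjusted p = 0.000567). Its excess in male 4 was large, and without that library the log2 fold change was 1.82. Mgst1, a microsomal enzyme, measured 3608, 3731, 3291, 3825 and 4086 CPM in the males and 1978, 2401 and 2583 CPM in the females (log2 fold change 0.67 ± 0.10 SE, adjusted p = 0.000673). Gstt3 and Gstt2 were 2.09-fold and 1.62-fold higher in females (adjusted p = 0.000216 and 0.0117). Carboxylesterases, which hydrolyse esters, were also called in both directions, with 3 of 14 higher in males and 5 in females. Ces1c, a plasma esterase, measured 1084, 1174, 807, 1802 and 1349 CPM in the males and 2448, 2877 and 3409 CPM in the females (log2 fold change -1.20 ± 0.18 SE, adjusted p = 0.000716). Ces3a, an endoplasmic reticulum lipase, measured 1414, 1566, 1272, 2608 and 1621 CPM in the males and 463, 850.1 and 1182 CPM in the females (log2 fold change 1.0 ± 0.22 SE, adjusted p = 0.0089). Ces1b and Ces1g were 2.72-fold and 1.95-fold higher in females (adjusted p = 0.000687 and 0.000128). Ces2c and Ces4a were 2.54-fold and 7.51-fold higher in males (adjusted p = 0.00242 and 0.00538).

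Of 15 acyl and methyl conjugation enzymes, 5 were higher in males and 1 in females. Nat8f5 measured 12.4, 9.05, 10.8, 8.59 and 6.12 CPM in the males and 0.0653, 0.259 and 0.763 CPM in the females (log2 fold change 4.76 ± 0.34 SE, adjusted p = 2.18e-06). Its relative Nat8, a cysteine conjugate acetyltransferase, measured 13.7, 14.3, 11.8, 24.5 and 14.2 CPM in the males and 0.401, 0.994 and 3.84 CPM in the females (log2 fold change 3.40 ± 0.41 SE, adjusted p = 0.000183). Tpmt, which methylates thiopurines, was 2.17-fold higher in males with no overlap (adjusted p = 1.96e-05), and Inmt, an indole methyltransferase, 1.72-fold higher in females (adjusted p = 0.0177).

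Transporters of drugs and organic anions were called for 16 of 26 tested members, 6 higher in males and 10 in females. Slc22a26 measured 0.245, 0.999, 0.0589, 0.241 and 0.635 CPM in the males and 40.9, 48.1 and 71.8 CPM in the females (log2 fold change -6.81 ± 0.34 SE, adjusted p = 4.59e-08). Its relative Slc22a28 had the opposite layout, with 5.27, 5.29, 4.13, 15.1 and 5.78 CPM in the males and 0.0684, 0.342 and 2.01 CPM in the females (log2 fold change 3.26 ± 0.61 SE, adjusted p = 0.00332). Without female 5 its log2 fold change was 3.86. Slc22a27 and Slco1a4 were 7.91-fold and 5.1-fold higher in females (adjusted p = 9.61e-05 and 2.3e-05). Abcg2, the efflux pump BCRP, measured 77.6, 83.4, 90.2, 99.1 and 73.9 CPM in the males and 23, 25.2 and 34.2 CPM in the females (log2 fold change 1.66 ± 0.12 SE, adjusted p = 1.7e-06). Of 14 xenobiotic receptors and partners, 6 were higher in females and 0 in males, and 3 were higher in females without male 1 or male 3. Nr1i3, the receptor CAR, measured 20.9, 29.4, 23.6, 21.3 and 26.9 CPM in the males and 48.3, 56.5 and 76.9 CPM in the females (log2 fold change -1.30 ± 0.13 SE, adjusted p = 3.78e-05). Arnt, partner of the aryl hydrocarbon receptor, was 1.38-fold higher in females (adjusted p = 0.0152). Nr1i2, the receptor PXR, was 1.29-fold higher in females (adjusted p = 0.0186), a call lost without male 1 (adjusted p = 0.05).

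Of 188 tested members of the lipid lists, 30 (16%) were called higher in males and 19 (10.1%) in females, and 10 of the 30 were droplet proteins. Cpt1a, the outer-membrane carnitine palmitoyltransferase that gates entry of fatty acids into mitochondria and the target of the LKO genotype, measured 314, 371, 373, 301 and 425 CPM in the control males and 287, 403 and 436 CPM in the control females, with no difference called (log2 fold change -0.12 ± 0.13 SE, adjusted p = 0.556). In the LKO livers Cpt1a ran from 41.7 to 95.8 CPM in the males and from 62.3 to 87.6 CPM in the females, below every control liver.

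Proteins of the lipid droplet were the lipid list with the largest share called. Of 18 tested, 10 (55.6%) were higher in males and 0 in females, with a median log2 fold change of 0.56 where all genes had -0.0045. Cidec, which fuses droplets, measured 225, 222, 299.6, 10.3 and 267 CPM in the males and 5.89, 10.5 and 18.9 CPM in the females (log2 fold change 4.16 ± 0.63 SE, adjusted p = 0.000896). Cidea, its relative in fat tissue and fatty liver, measured 43.4, 40.7, 66.1, 0.321 and 87.2 CPM in the males and 0.0653, 0.547 and 2.48 CPM in the females (log2 fold change 5.85 ± 0.88 SE, adjusted p = 0.000891). In both genes 4 males lay above every female and male 4 lay inside the female range. Without male 4 the log2 fold changes were 4.47 and 6.17, and without female 5 that of Cidea was 6.55. By limma-voom with sample quality weights Cidea was not called (adjusted p = 0.0655). Fitm1, a droplet-forming membrane protein, measured 171, 149, 142, 98.9 and 201 CPM in the males and 11.1, 28.9 and 44.8 CPM in the females (log2 fold change 2.39 ± 0.31 SE, adjusted p = 0.000339). Here male 4 was again the lowest male but still above every female. Plin2, the main droplet coat of hepatocytes, measured 1092, 1061, 1404, 643 and 1162 CPM in the males and 386, 548 and 756 CPM in the females (log2 fold change 0.95 ± 0.21 SE, adjusted p = 0.00856). Male 4 was the lowest male for 15 of the 18 droplet genes, and without it 14 members were higher in males. Cidec, Cfd and Fabp4 are also adipocyte markers and were the 3 of 7 such markers tested, all called higher in males. The summed marker level ran from 24.4 to 360.3 CPM in males and from 15.7 to 31.2 CPM in females. Cidec, itself one of the droplet genes, made up most of that sum in males 1, 2, 3 and 6. Adipoq, Plin1, Lep and Retn, which define adipocytes, had too few counts to test and stayed at or under 1.34 CPM in every liver. What part this had in the droplet result was not tested.

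Fatty acid and triglyceride synthesis had 3 of 23 tested genes higher in males and 3 in females. Without male 4 the counts were 5 and 3, and without male 1, 2 or 3 the list held 1 member higher in females. Mogat1, a monoacylglycerol acyltransferase, measured 8.28, 7.93, 7.96, 0.883 and 6.93 CPM in the males and 0.261, 1.35 and 2.08 CPM in the females (log2 fold change 2.38 ± 0.55 SE, adjusted p = 0.0108), with male 4 alone inside the female range. Agpat2 and the mitochondrial citrate carrier Slc25a1 were 1.46-fold and 1.37-fold higher in males (adjusted p = 0.0127 and 0.015). The phosphatidate phosphatase Lpin2 was 1.43-fold higher in females (adjusted p = 0.0164). Dgat2, which makes triglyceride, was 1.36-fold higher in females (adjusted p = 0.023), and that call was lost without male 1, 2 or 3 (adjusted p = 0.0557, 0.0554 and 0.0546). Lpin1 was higher in females (log2 fold change -0.92 ± 0.29 SE, adjusted p = 0.0451) and lost its call in 9 of 11 fits that left out 1 sample, with an adjusted p of up to 0.103.

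Among 12 desaturases and elongases, 3 were higher in males and 1 in females. Elovl3, an elongase of very long chains, measured 129, 142, 103, 566 and 129.7 CPM in the males and 1.63, 4.51 and 10.3 CPM in the females (log2 fold change 5.32 ± 0.58 SE, adjusted p = 7.74e-05). Male 4 was by far the highest liver, and without it the log2 fold change was 4.57. Elovl1 was 1.81-fold higher in males with no overlap (adjusted p = 0.000154). Elovl7 was higher in males (log2 fold change 2.55 ± 0.70 SE, adjusted p = 0.0232) but not without male 3 (log2 fold change 1.83, adjusted p = 0.0764). Fads3 was higher in females (log2 fold change -1.07 ± 0.33 SE, adjusted p = 0.0411), a call lost in 8 of 11 fits that left out 1 sample, male 4 among them, with an adjusted p of up to 0.0789. Scd1, the stearoyl-CoA desaturase and the list's highest member per gene length, was not called: it measured 17783, 23959, 17489, 8997 and 12798 CPM in the males and 7859, 11094 and 21430.0 CPM in the females (log2 fold change 0.34 ± 0.27 SE, adjusted p = 0.409).

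**Figure D3:**
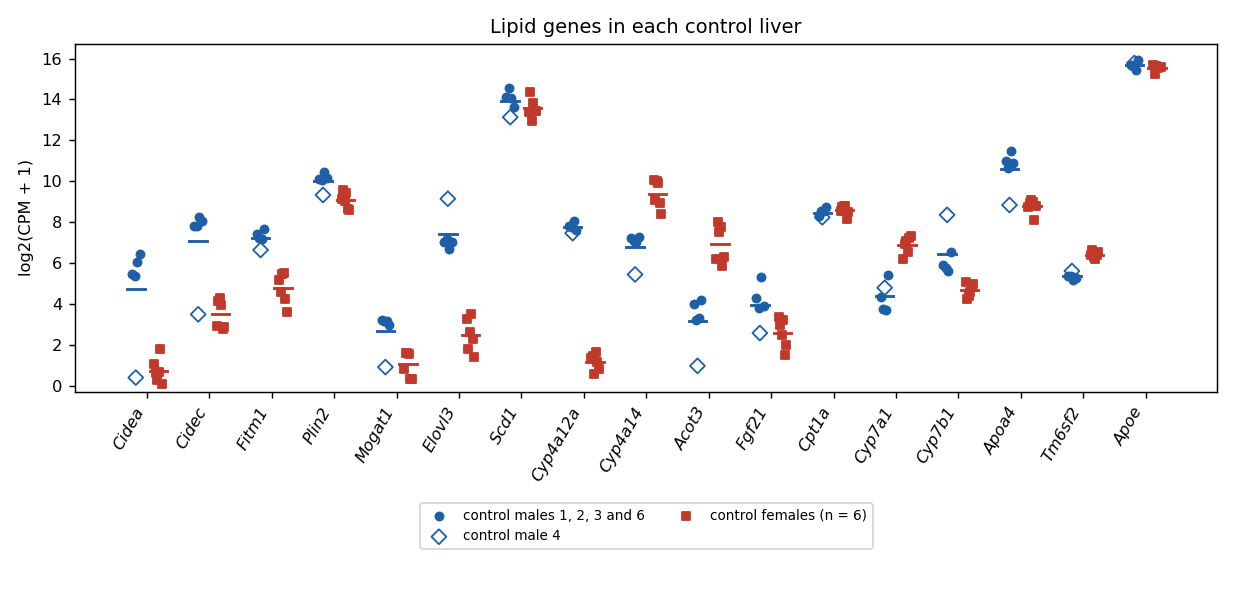
Expression of 17 lipid genes in each control liver as log2(CPM + 1), with males in blue (male 4 as an open diamond), females in red squares and the mean of each sex as a bar. Male 4 falls among or below the females for Cidea, Cidec, Mogat1 and Apoa4 and is the highest liver for Elovl3 and Cyp7b1, while Cpt1a, Scd1 and Apoe overlap between the sexes.

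Fatty acid uptake and binding genes were higher in males for 5 of 16 tested members and higher in females for 0, although the list's median was -0.18 (-0.23 to -0.11 with 1 liver left out). Dbi, the acyl-CoA binding protein, measured 929.5, 873, 962, 909.5 and 1166 CPM in the males and 536, 664 and 814 CPM in the females (log2 fold change 0.53 ± 0.13 SE, adjusted p = 0.0131). Fabp2 and Fabp4 were 1.43-fold and 2.12-fold higher in males (adjusted p = 0.0136 and 0.00688). Fabp1, the liver fatty acid binding protein and the list's highest member per gene length, was 1.53-fold higher in males (adjusted p = 0.0339), a call lost without male 6 or female 3, 5 or 6 (adjusted p = 0.0917, 0.0535, 0.0684 and 0.0555). The list held 2 members higher in females without control male 4 and 1 without male 2, and 3 higher in males without male 6 or female 3, 5 or 6.

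Mitochondrial oxidation and ketogenesis had few calls. Of 22 tested genes, 2 (9.09%) were higher in males and 0 in females. Only 1 was higher in males without male 1, 2, 3 or 6 or female 2, 5 or 6, and 1 was higher in females without male 3. Acads, the short-chain acyl-CoA dehydrogenase, measured 351, 340.2, 347, 333 and 407 CPM in the males and 246, 269 and 308 CPM in the females (log2 fold change 0.37 ± 0.09 SE, adjusted p = 0.0119).

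Targets of PPAR-alpha with peroxisomal and omega oxidation contained the largest differences of any lipid list, in both directions: 4 of 27 tested were higher in males and 5 in females. Without male 1, male 3 or female 6 the list held 2 members higher in males. The omega-hydroxylases of the Cyp4a family divided. Cyp4a12a measured 223, 215, 262, 176 and 198 CPM in the males and 0.479, 1.36 and 2.1 CPM in the females (log2 fold change 7.33 ± 0.26 SE, adjusted p = 1.24e-09), and Cyp4a12b, a close copy, had a log2 fold change of 7.62. Cyp4a14, by contrast, measured 151, 132, 129, 42.6 and 152 CPM in the males and 332, 759.7 and 1061 CPM in the females (log2 fold change -2.60 ± 0.37 SE, adjusted p = 0.000673). No female overlapped a male in any of the 3. Acot3, a peroxisomal acyl-CoA thioesterase, measured 15, 8.29, 9.02, 0.964 and 17.5 CPM in the males and 57.7, 131 and 256 CPM in the females (log2 fold change -3.81 ± 0.59 SE, adjusted p = 0.00104). Acot4 was 3.18-fold higher in females (adjusted p = 0.00305). The lowest male was male 4 for Cyp4a14, Acot3 and Acot4. Fgf21, a fasting hepatokine, measured 18.6, 12.9, 38.4, 4.98 and 14 CPM in the males and 1.81, 5.64 and 9.27 CPM in the females (log2 fold change 1.66 ± 0.46 SE, adjusted p = 0.0257), and its call was lost without male 1 or 3 or female 3 or 6 (adjusted p = 0.0502, 0.0769, 0.0502 and 0.0573).

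None of 24 genes of cholesterol synthesis and SREBP2 control was called by edgeR. Male 4 was the lowest male for 21 of the 24 genes, and male 6 the highest for 21. Female 3 was the lowest female for 17 of them, and female 2 the highest for 13. Without male 4, 1 gene was called higher in males. Without male 6 or female 3, 1 gene was called higher in females. At an unadjusted p under 0.05, 1 of the 24 passed, and DESeq2 called 1, higher in females.

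Bile acid synthesis and sterol transport held 2 of 19 tested genes higher in males, or 4 without female 4, and 4 in females. Cyp7a1, the rate-limiting enzyme of the classic pathway, measured 18.9, 12.5, 11.9, 26.7 and 42.5 CPM in the males and 71.8, 128 and 157 CPM in the females (log2 fold change -2.42 ± 0.33 SE, adjusted p = 0.000438). Cyp7b1, the oxysterol hydroxylase of the alternative pathway, measured 59, 53.8, 47.9, 327 and 93.7 CPM in the males and 18.2, 25.2 and 33.1 CPM in the females (log2 fold change 2.19 ± 0.45 SE, adjusted p = 0.00595). Male 4 again exceeded the other males in Cyp7b1, and without it the log2 fold change was 1.33. Akr1d1, a reductase shared by both routes, was 2.99-fold higher in females (adjusted p = 0.000494). Abcb4, the phospholipid floppase of the bile canaliculus, was 1.45-fold higher in males (adjusted p = 0.00494). Slc10a1, the bile acid importer NTCP, was 1.51-fold higher in females (adjusted p = 0.0193), a call lost without male 1 (adjusted p = 0.0535).

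Lipoprotein genes were higher in females for 6 of 27 tested members and in males for 1, or for 2 without male 2. Apoa4, an exchangeable apolipoprotein of fat-loaded liver and gut, was the male member at 2039, 1609.6, 2896, 457 and 1919.9 CPM in the males and 271, 468 and 538 CPM in the females (log2 fold change 2.0 ± 0.34 SE, adjusted p = 0.00183). As with Cidec, male 4 fell inside the female range. Tm6sf2, which acts in the lipidation of very-low-density lipoprotein, measured 40.7, 39.7, 34.8, 47.9 and 37 CPM in the males and 72.6, 82.2 and 98.6 CPM in the females (log2 fold change -1.07 ± 0.10 SE, adjusted p = 2.7e-05). Pon1, the paraoxonase carried on high-density lipoprotein, and Sdc1, a remnant receptor, were 1.7-fold and 1.44-fold higher in females (adjusted p = 0.0156 and 0.00851). Apoe, the list's highest member per gene length, was not called (log2 fold change 0.14 ± 0.13 SE, adjusted p = 0.48).

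Of 215 tested members of the inflammatory lists, 21 (9.77%) were called higher in males and 49 (22.8%) higher in females. Without control male 4 these counts were 35 and 66 of 217. The count of male calls was as low as 14 in the fits that left out 1 liver, without male 1. Most female calls lay in interferon-stimulated genes, complement, acute phase proteins and antigen presentation, and the list with the most male calls was that of collagens and matrix genes.

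Interferon-stimulated genes, the antiviral effectors that interferons induce, had 14 of 31 tested members (45.2%) higher in females and 0 in males. Their median log2 fold change was -0.96, or -0.55 without female 6. Igtp, an immunity-related GTPase, measured 29.6, 17.2, 16.7, 33.6 and 24 CPM in the males and 51.6, 56.7 and 78.7 CPM in the females (log2 fold change -1.34 ± 0.19 SE, adjusted p = 0.000562). Gbp3, a guanylate-binding protein, measured 7.91, 6.64, 4.77, 8.75 and 5.31 CPM in the males and 18.2, 21.5 and 50.9 CPM in the females (log2 fold change -1.97 ± 0.28 SE, adjusted p = 0.000571). Zbp1, a sensor of Z-form nucleic acid, was 2.03-fold higher in females (adjusted p = 0.000867). No male reached a female for Igtp, Gbp3 or Zbp1. Ifi44, another interferon target, ranged from 2.47 to 6.02 CPM in the males and from 8.15 to 29.4 CPM in the females (log2 fold change -1.80 ± 0.36 SE, adjusted p = 0.00473). Bst2, or tetherin, the list's highest member per gene length, was not called (log2 fold change -0.19 ± 0.14 SE, adjusted p = 0.371). Single animals stood out in this list. Female 6 was the highest female for 30 of the 31 genes, against 17.4% of all tested genes, and male 4 the highest male for 25 of 31. Without female 6 the list still held 13 members higher in females, and without male 4 it held 21. Across the livers, the mean log2(CPM + 1) of the list relative to the female mean was -0.71, -0.96, -0.95, -0.28 and -0.85 in the males. In females 1 to 6 it was -0.20, -0.16, -0.22, -0.21, 0.05 and 0.74. Male 4 therefore lay closer to females 1 to 4 than the other males did. Markers of T and NK cells and of neutrophils gave no call among the 5 and 2 markers tested. Their summed levels were 3.17 to 15.2 CPM and 1.76 to 5.48 CPM in males and 4.33 to 10.8 CPM and 1.64 to 9.66 CPM in females. Markers of Kupffer cells and macrophages were higher in females for 4 of 10 and in males for 0, and summed to 551 to 1021 CPM in males and 839.7 to 1514 CPM in females. What part these cells had in the result was not tested.

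**Figure D4:**
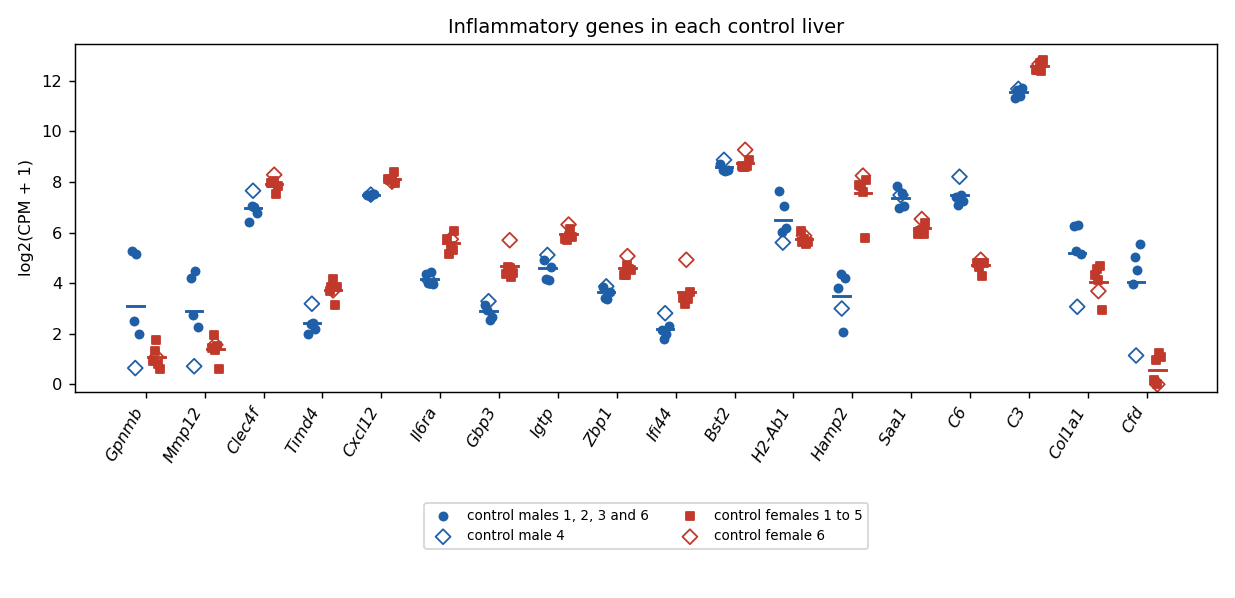
Expression of 18 inflammatory genes in each control liver as log2(CPM + 1), with males in blue (male 4 as an open diamond), females in red (female 6 as an open diamond) and the mean of each sex as a bar. The interferon-stimulated genes Gbp3, Igtp, Zbp1 and Ifi44 are highest in female 6, and Gpnmb, Mmp12 and Col1a1 are highest in males 1 and 3.

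Of 23 tested macrophage genes, 4 were higher in males and 4 in females. Without male 4 the counts were 7 and 5, and without male 1 or male 3 the list held 2 members higher in males. Gpnmb, a glycoprotein of lipid-associated macrophages, measured 37.7, 4.7, 34.7, 0.562 and 2.95 CPM in the males and 0.535, 1.01 and 2.33 CPM in the females (log2 fold change 3.76 ± 0.85 SE, adjusted p = 0.00911). Mmp12, the macrophage elastase, measured 17.5, 5.76, 21.4, 0.642 and 3.81 CPM in the males and 0.535, 1.78 and 2.83 CPM in the females (log2 fold change 2.49 ± 0.63 SE, adjusted p = 0.0167). Cd63, a lysosomal tetraspanin, measured 57.6, 13.3, 84.6, 8.19 and 19.1 CPM in the males and 7.89, 9.51 and 13.2 CPM in the females (log2 fold change 1.87 ± 0.49 SE, adjusted p = 0.0204). In all 3 genes males 1 and 3 were highest and male 4 lay within the female range. The Cd63 call was lost without male 1 or male 3 (adjusted p = 0.0537 and 0.0592). Gpnmb was not called by limma-voom with sample quality weights (adjusted p = 0.0733). None of Gpnmb, Mmp12 and Cd63 was called by limma on the deposited FPKM. On the female side, Clec4f, a lectin of resident Kupffer cells, measured 83.9, 131, 129.6, 200.4 and 109 CPM in the males and 184, 247 and 311 CPM in the females (log2 fold change -0.92 ± 0.19 SE, adjusted p = 0.00623). Timd4, a phosphatidylserine receptor of resident macrophages, measured 3, 4.29, 4.36, 8.11 and 3.52 CPM in the males and 7.83, 12.8 and 16.7 CPM in the females (log2 fold change -1.45 ± 0.24 SE, adjusted p = 0.00173). Atp6v0d2, a proton pump subunit of macrophages, was 4.23-fold higher in females (adjusted p = 0.00297). Summed levels of the Kupffer cell and macrophage markers are those given with the interferon-stimulated genes.

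Chemokines and their receptors were called for 4 of 20 tested members, 2 in each direction (10% each), and without male 1 the list held 5 members higher in females. Cxcl12, the stromal ligand of CXCR4, measured 178, 174, 181, 180.0 and 184 CPM in the males and 248, 274 and 337 CPM in the females (log2 fold change -0.63 ± 0.09 SE, adjusted p = 0.00042). Ccl24, an eosinophil attractant, was 2.93-fold higher in females (adjusted p = 0.00657). Ccr2, the receptor of recruited monocytes, and Cxcl14 were 2.55-fold and 2.5-fold higher in males (adjusted p = 0.00631 and 0.0107). Among 25 cytokine and NF-kappaB genes, 4 were higher in females and 1 in males. Il6ra, the receptor of interleukin-6, measured 19.7, 15.2, 20.5, 16.1 and 14.8 CPM in the males and 35, 47.8 and 66.2 CPM in the females (log2 fold change -1.47 ± 0.16 SE, adjusted p = 8.37e-05). The NF-kappaB pathway genes Nfkbia and Nfkbiz were 1.77-fold and 2.42-fold higher in females (adjusted p = 0.00651 and 0.0154). Nfkb2, a subunit of the non-canonical pathway, was 1.42-fold higher in males (adjusted p = 0.0159).

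Antigen presentation genes were higher in females for 7 of 24 tested members and in males for 2. The male count was 5 without male 4, 4 without male 2, and 1 without male 1, male 3 or any of females 2 to 6. Nlrc5, the class I transactivator, measured 11.4, 14, 10.7, 12.1 and 8.2 CPM in the males and 15.6, 19.8 and 23.6 CPM in the females (log2 fold change -0.80 ± 0.15 SE, adjusted p = 0.00342). Cd1d1, which presents lipids, and the class Ib gene H2-Q4 were 1.47-fold and 1.45-fold higher in females (adjusted p = 0.00327 and 0.0108). H2-Q10, a class I molecule secreted by liver, went the other way at 3844, 3825, 4634, 3168 and 4575 CPM in the males and 2420.2, 2717 and 3156 CPM in the females (log2 fold change 0.56 ± 0.12 SE, adjusted p = 0.007). The class II chain H2-Ab1 measured 199.7, 63.8, 131, 47.7 and 71.5 CPM in the males and 45.3, 50.6 and 65.6 CPM in the females (log2 fold change 0.96 ± 0.30 SE, adjusted p = 0.0414). Males 1 and 3 carried that difference, and the call was lost in 7 of 11 fits that left out 1 sample, with an adjusted p of up to 0.115.

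Acute phase proteins, which hepatocytes secrete under interleukin-6, were higher in females for 7 of 27 tested members and in males for 3. Hamp2, a hepcidin paralog, measured 13, 19.7, 3.18, 6.99 and 17.6 CPM in the males and 53.6, 232 and 304 CPM in the females (log2 fold change -4.14 ± 0.50 SE, adjusted p = 0.000179). Hamp, hepcidin itself, had the widest spread of the list, at 113, 241, 44.9, 1406 and 307 CPM in the males and 31.5, 643 and 1149 CPM in the females, and was not called (log2 fold change -0.61 ± 0.82 SE, adjusted p = 0.645). Itih4 and Serpina3m were 1.6-fold and 2.3-fold higher in females (adjusted p = 0.00149 and 0.000239). The serum amyloid genes went the other way. Saa1 measured 226, 124, 186, 178 and 131 CPM in the males and 60.4, 67.5 and 91.7 CPM in the females (log2 fold change 1.24 ± 0.16 SE, adjusted p = 0.000334), and Saa2 had a log2 fold change of 1.34. Saa1 and Saa2 are near-identical copies. Neither was called when all 23 livers shared one estimate of the spread (adjusted p = 0.109 and 0.0837). Steap4, a metalloreductase, was the third member higher in males (log2 fold change 0.70 ± 0.20 SE, adjusted p = 0.0298) and lost its call in 7 of 11 fits that left out 1 sample, the one without male 4 among them (adjusted p up to 0.073). Without control male 4 the list held 12 members higher in females.

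Complement and coagulation factors were higher in females for 11 of 40 tested members and in males for 3. C3, the central component, measured 2566, 3182, 2721, 3284 and 3384 CPM in the males and 5305, 6013 and 7207 CPM in the females (log2 fold change -1.01 ± 0.12 SE, adjusted p = 0.000154). Mbl2, a mannose-binding lectin that starts the lectin pathway, and coagulation factor F7 were 1.55-fold and 1.94-fold higher in females (adjusted p = 0.000673 and 0.00202). The male members were parts of the membrane attack complex and a protease of the alternative pathway. C6 measured 169, 136, 178, 295 and 151 CPM in the males and 18.3, 26.7 and 29.4 CPM in the females (log2 fold change 2.88 ± 0.19 SE, adjusted p = 9.42e-07). C8a measured 281, 287, 279.9, 452 and 287 CPM in the males and 36, 97.6 and 179 CPM in the females (log2 fold change 1.65 ± 0.32 SE, adjusted p = 0.00389). In both, male 4 was the highest liver and no female reached a male. Cfd, or adipsin, measured 14.6, 31.7, 22, 1.2 and 45.4 CPM in the males and 0, 0.524 and 1.34 CPM in the females (log2 fold change 5.27 ± 0.80 SE, adjusted p = 0.000949), with male 4 inside the female range. Of 10 hepatocyte markers, 4 were also higher in females, with the summed levels given above, and what part this had in these counts was not tested.

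Collagens and matrix remodelling genes were higher in males for 6 of 25 tested members (24%) and in females for 0, with a median log2 fold change of 0.62. Col4a2, of the basement membrane, measured 56.2, 42.1, 65.7, 30.4 and 48.9 CPM in the males and 24.7, 28.7 and 32.1 CPM in the females (log2 fold change 0.76 ± 0.16 SE, adjusted p = 0.00611). Loxl1, a collagen cross-linking enzyme, was 2.01-fold higher in males (adjusted p = 0.0101). Col4a1 was 1.47-fold higher in males (adjusted p = 0.0217), a call lost without male 1 or male 3 (adjusted p = 0.0565 and 0.0539). Col1a1, of fibrillar collagen, measured 76.4, 37.4, 77.6, 7.39 and 34.4 CPM in the males and 6.69, 17.5 and 24.3 CPM in the females (log2 fold change 1.48 ± 0.46 SE, adjusted p = 0.0413). Males 1 and 3 were highest and male 4 lay within the female range, and the Col1a1 call was lost in 9 of 11 fits that left out 1 sample, with an adjusted p of up to 0.104. The lowest male for 20 of the 25 genes was male 4. The list held 13 members higher in males without male 4 but 2 without male 1 or male 3, and 3 without male 6 or female 1, 3 or 5. Stellate cell and fibroblast markers, 2 of 10 of them called higher in males, summed to 255 to 576 CPM in males and 272 to 335 CPM in females. The called markers were Lum and Col1a1, the latter described above. The sum includes the collagens Col1a1, Col1a2 and Col3a1, so it is not separate from the collagen result.

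The same contrast was then read in the LKO livers, 6 males and 6 females that the control comparison does not use. LKO males are in the deposited table of the control males, and LKO females in that of the control females. Sex and table therefore coincide here too, and calls shared by both contrasts cannot tell them apart. There 1516 of 11977 tested genes (12.7%) were called, 800 (6.68%) higher in males and 716 (5.98%) in females. Of the 2249 control calls, 777 were called in LKO livers in the same direction and 0 in the opposite direction, which is 34.5% of the control calls and 51.3% of the LKO calls. Among control calls tested in LKO livers, 91.1% had the same sign there, against 68.9% of all genes tested in both. Drug-metabolism calls stood at 44 higher in males and 49 in females of 192 tested. Cyp2c69 and Slc22a26 had LKO log2 fold changes of -9.70 and -7.20, and Cyp2d9, Cyp4a12a and Mup20 of 4.68, 7.53 and 4.57.

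Some control differences were not called in LKO livers. Interferon-stimulated genes were higher in females for 6 of 31 there, with a median of -0.08, droplet proteins higher in males for 4 of 18, and collagens for 1 of 25. Fatty acid and triglyceride synthesis, with 3 of 23 in each direction in controls, had 8 of 23 higher in males and 1 in females in LKO livers. Saa1 had a log2 fold change of -1.03 in LKO livers against 1.24 in controls, Cyp2a5 -0.42 against -1.66, and Gpnmb 0.85 against 3.76. The difference between genotypes was tested itself as an interaction over all 23 livers, and edgeR called 0 of 12372 autosomal protein-coding genes. The lowest adjusted p was 0.112, and 1634 genes had an unadjusted p under 0.05. DESeq2 called 89 (0.719%), and edgeR called 15 (0.12%) without control male 4. For Saa1, Cyp2a5 and Gpnmb the interaction had an adjusted p of 0.235, 0.155 and 0.278 by edgeR.

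**Figure D5:**
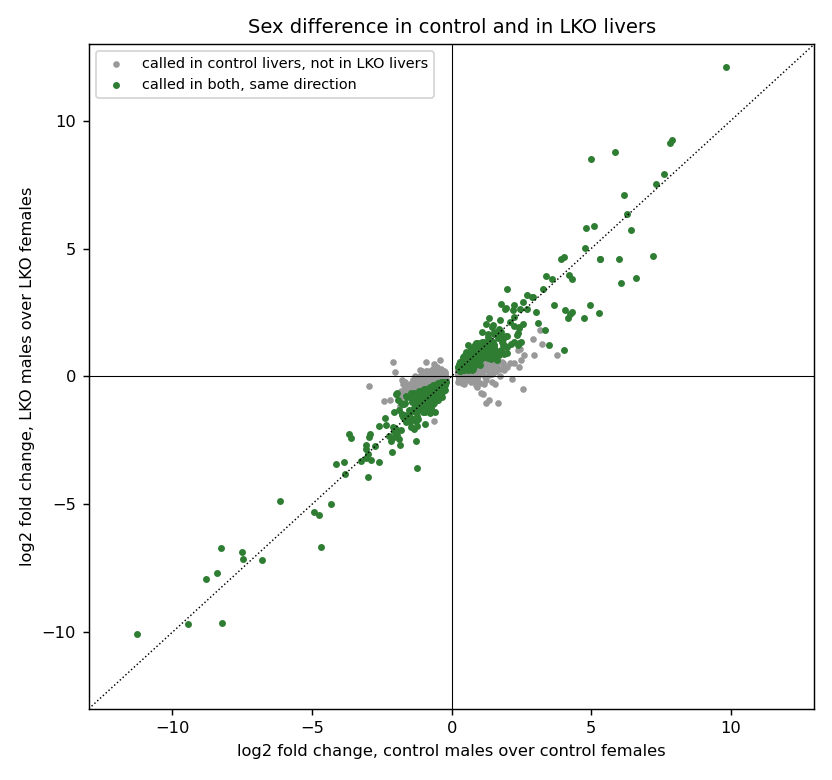
Log2 fold change, male over female, in control livers (x axis) and in LKO livers (y axis) for genes called in control livers and tested in both. Green points are the 777 genes called in both in the same direction, grey points were called in control livers and not in LKO livers, and the dotted line marks equal values.

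Genes listed for one sex only were kept out of every count: 421 autosomal protein-coding genes stood in the female table only and 423 in the male table only. Of these, 6 reached a mean of 10 counts in a control group: Sult2a2, Sult2a5, Sult2a6, Sult3a2 and Cyp3a41b on the female side and Moxd1 on the male side. Moxd1, a monooxygenase of known male bias, had 2, 0, 0, 410 and 3 counts in the males, so its level came from male 4. Neither table holds a gene at 0 in all of its own samples, so absence from a table means that no sample of that table had a count.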

How the data were processed

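RNA of whole mouse liver was read as poly-A-selected, dUTP-marked libraries, per the labels' protocols. The reads were aligned with HISAT2 2.0.5 to mm39, per the submitters' processing notes; the counter, its annotation release and its strand setting are not given in the sources used here. The authors deposited one table per sex with raw read counts per gene, FPKM, counts divided by a size factor (a scaled signal), and their own log2 fold changes and p-values of LKO against control in each sex, which the deposited tables hold and no result here uses. Size factors and FPKM were set within each deposited table by the authors, so raw counts were joined by gene identifier.

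Genes in both tables passed filterByExpr, were scaled by TMM and were tested with edgeR 4.0.16 (quasi-likelihood) in R 4.3.3, and p-values were adjusted by Benjamini and Hochberg's method across the 13699 genes of every kind that entered the test. Counts of calls cover autosomal protein-coding genes. LKO males against LKO females and the interaction of sex and genotype were fitted in the same way. The rank of members by level used RPKM from gene length. Alternatives used DESeq2 1.42.0, and limma 3.58.1 on log2(FPKM + 1) and log2(FPKM + 0.1) of the deposited FPKM. They also used limma-voom on counts with sample quality weights, other scalings and filters, and leaving out each sample. Scripts were tested on simulated data.

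Genes named are, per direction, the 8 with the largest differences among called genes without overlap whose counts averaged 50 or more, and, in each list, up to 3 called members with the lowest p, the member with the highest RPKM and, for inflammatory lists, the most variable one; others are marked as chosen after their values were seen. Some genes that this rule names are not reported here. Gene lists and members were chosen with earlier results of these data known. Nothing states that the samples of a group are separate litters or cages, so p-values measure only the spread between these samples. Replicate numbers recur in both sexes, the labels used here do not say that they pair the animals, and the main fit did not pair them. Counting error was not compared with the spread between animals, and it is wide for ratios where a sex had few counts. Intervals of single ratios cover counting error only.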

Additional observations from a re-analysis of the deposited data

Results flagged for a closer look

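Values are listed here where the highest or lowest liver of a sex lay apart from the others of that sex by Dixon's criterion at 95%, taken on log2(CPM + 1) for genes. Of 308 sets of values tested, 27 (8.77%) met it, where chance gives about 1 in 20. Male 4 accounted for 14 of the 27, being highest for 7 and lowest for 7.

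Male 4 was the high liver for Cyp2u1 (40.2 CPM), Cyp2f2 (1253 CPM), Nat8 (24.5 CPM), Slc22a28 (15.1 CPM), Elovl3 (566 CPM), C8a (452 CPM) and Mup14 (812 CPM). These are genes of oxidation, conjugation, transport, fatty acid elongation, complement and urinary protein, and each was called higher in males. Male 4 was the low liver for Cidea (0.321 CPM), Cidec (10.3 CPM) and Mogat1 (0.883 CPM), genes of fat storage called higher in males. It was also low for Cyp4a14 (42.6 CPM), Acot4 (16.5 CPM) and Gstt2 (54.4 CPM), called higher in females. Its number of genes with counts, 18232, lay below that of the other males.

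Single values lay apart elsewhere. Male 6 was high for Acads (407 CPM) and male 1 for Sall1 (17.6 CPM). Female 6 was high for the interferon-stimulated genes Gbp3 (50.9 CPM) and Ifi44 (29.4 CPM). Female 4 was low for both hepcidin genes, Hamp (31.5 CPM) and Hamp2 (53.6 CPM), and for Lpin1 (88.3 CPM), and high for Cxcl12 (337 CPM). Female 5 was low for Apoa4 (271 CPM). Female 2 was low for Sdc1 (228 CPM) and Apoe (39011 CPM) and had the most genes with counts (19896). Female 3 was high for Steap4 (133 CPM).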

How the results depend on the processing

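The control comparison called 2249 genes, and between 1615 and 2663 when 1 of the 11 livers was left out, the highest without male 4. Other scalings, filters and tests gave between 1896 (no filter on low counts) and 2749 (DESeq2). A log2 change of at least 1 left 462 genes, and 335 in LKO livers, by construction. The LKO comparison called 1516 genes, and 1113 to 1688 with 1 of 12 livers left out. The interaction called 0 genes by edgeR and 0 to 15 with 1 liver left out, the 15 without control male 4, and 89 by DESeq2; the cause was not tested.

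Replicate numbers are shared by the sexes, and the deviations of same-numbered males and females correlated at 0.05, 0.11, -0.03, -0.13 and -0.16. Correlations this low give no sign that the numbers pair the animals, but cannot show that they do not. With the replicate block the control comparison called 902 genes and the LKO comparison 1336. In the control comparison 36 named genes lost their call with that block.

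Of 148 named genes called, 105 were called under every alternative that gave a value, the log2 threshold left aside, and 130 in every fit that left out 1 liver. None of the 155 named genes reversed. Limits are the small groups, the shared sequence of gene families, and sex coinciding with table.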

Other observations

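Markers of liver zones were called mostly on the female side. Of 10 markers of periportal hepatocytes, which handle urea synthesis and gluconeogenesis, 5 were called higher in females and 2 higher in males, beside 9.27% and 9.62% of all genes. The log2 fold changes, male over female, were Cps1 -1.10 (adjusted p = 0.0341), Pck1 -0.62 (adjusted p = 0.00862), Sds -0.70 (adjusted p = 0.0329) and Gls2 -0.69 (adjusted p = 0.028). The calls of Cps1, Sds and Gls2 were each lost in 6 of the 11 fits that left out 1 liver, with adjusted p of up to 0.083, 0.079 and 0.0693, while Pck1 kept its call in those 11 fits. The 4 genes were chosen after their values were seen. Cps1 starts the urea cycle, Pck1 serves gluconeogenesis, and Sds and Gls2 break down serine and glutamine. The summed level of the 10 markers ran from 42980 to 60090 CPM in males and from 68710 to 80470 CPM in females, most of it from Alb. The other 9 markers summed to 6984 to 12670 CPM in males and 10330 to 17310 CPM in females, which overlapped. Of 10 markers of pericentral hepatocytes 2 were higher in females, and their summed levels, 8085 to 13370 CPM in males and 9237 to 14190 CPM in females, overlapped. Cyp2f2 and Hsd17b13, the 2 periportal markers higher in males, are also members of lists described above, and Alb is also among the hepatocyte markers.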
